A study of Mus musculus with 6 samples.

Results

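The cell cycle and DNA replication genes described here are a set of 50 gene symbols, taken from the deposited count table wherever the listed symbol matched the gene column exactly. All 50 were found among the 22601 genes of the table, and all 50 were kept by the filter on low counts, which left 13483 genes to test. The set holds 24 mitotic genes, 18 replication genes, 3 G1 cyclins, 4 transcription factors and 1 inhibitor of cyclin-dependent kinases. The set gives the level of cell cycle transcripts in osteoclast cultures with and without Slc37a2, a sugar transporter of the solute carrier family. It also lets S-phase genes be set beside mitotic genes.

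RNAseq counted fragments per gene in 3 wild-type (WT) and 3 *Slc37a2* KO libraries from mice of the C57BL/6N background. The KO allele is tm2a, a gene-trap cassette placed in *Slc37a2* in embryonic stem cells of the KOMP consortium, a germline allele that is not limited to a lineage. By the sample labels, all 6 are osteoclasts grown from bone marrow macrophages over 5 days in 2 ng/ml M-CSF with RANKL at 10 ng/ml. The results of the paper also call the RNAseq samples osteoclasts, whereas its RNAseq methods describe whole femurs and tibias of both sexes. Libraries are named by the animal number in their column headings, which also give an age of 11 weeks and a letter F from which no sex was taken. Totals in WT (K090, L080 and L082) were 39250356, 27552183 and 31396766 counts. Totals in *Slc37a2* KO (K089, L078 and L081) were 29279260, 42522292 and 29663713 counts. P-values measure the spread between these 6 libraries and nothing wider.

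Osteoclasts form by fusion of macrophage precursors. Precursors divide under M-CSF and leave the cell cycle as RANKL drives them to become multinucleated cells. In dividing cells, E2F factors switch on replication genes near the start of S phase, and a later programme that involves MYBL2 and FOXM1 switches on mitotic genes in G2. Cyclin-dependent kinases, paired with D, E, A and B cyclins in turn, move a cell from one phase to the next.

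The genotype was first checked on the targeted gene. *Slc37a2* had 75789, 60889 and 76013 counts in WT and 1233, 1446 and 1043 counts in *Slc37a2* KO libraries, so each library carried the level its label calls for. It fell by 5.82 on the log2 scale (95% confidence interval −6.30 to −5.34, adjusted p = 7.07e-04 by the quasi-likelihood test of edgeR, Benjamini-Hochberg adjusted over the 13483 genes).

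Cell cycle transcripts were present in every library. The 50 genes together took 0.376%, 0.282% and 0.269% of all counts in K090, L080 and L082 (WT), and 0.179%, 0.367% and 0.218% in K089, L078 and L081 (*Slc37a2* KO). After TMM scaling (edgeR's correction of library size), their summed level was 3616, 2743 and 2710 CPM, depth-scaled counts, in WT and 1925, 3459 and 2282 CPM in *Slc37a2* KO libraries. K089 and L081 thus lay below every WT library, while L078 lay near the highest WT library, K090. The mean was 3023 ± 514 CPM (SD, n = 3) in WT and 2555 ± 803 CPM (SD, n = 3) in *Slc37a2* KO, or 84.5% of WT, a difference smaller than the spread among the *Slc37a2* KO libraries. In bulk RNA, fewer cycling cells and less of these transcripts per cell cannot be told apart.

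The *Slc37a2* KO estimate was lower than WT for 49 of the 50 genes and higher for 1, *Cdt1*. The median log2 fold change was −0.25, with a range of −0.36 to 0.03. Over all genes tested the median was −0.02, and 56.2% had a log2 fold change below 0. None of the 50 differences passed the test: 0 genes had an adjusted p below 0.05 (edgeR quasi-likelihood, Benjamini-Hochberg adjusted), 0 had an unadjusted p below 0.05, and 0 were called by edgeR's likelihood ratio test or DESeq2's Wald test. Across the whole table those first shares were 0.00742% and 0.712%. For 0 of the 50 genes did the groups separate, where every *Slc37a2* KO library was below every WT library for 2.81% of all genes and above for 1.5%. The adjusted p ran from 0.969 to 0.976. This does not show that the levels are equal: all 50 confidence intervals include 0, 46 lie within a log2 fold change of −1 to 1, and 4 reach −1 or lower.

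The libraries varied together across the set. K090 had the highest level of 44 of the 50 genes, against 22.7% of all genes tested, and K089 the lowest level of 48, against 22.7%. K090 and L078 were the 2 highest libraries for 47 genes, where this holds for 17.4% of all genes tested. The exceptions were *Rrm2*, *Cdt1* and *Cdkn1a*. K090 and L078 also had the most counts of the 6 libraries, 39250356 and 42522292, while L080 had the fewest, 27552183. The part of sequencing depth was not tested. K089 and L081 were the 2 lowest libraries for 49 genes, all but *Cdt1*, where this holds for 20.9% of all genes tested. From the lowest to the highest library a gene of the set varied 1.97-fold at the median, and the median over all genes tested was 1.33-fold.

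**Figure D1:**
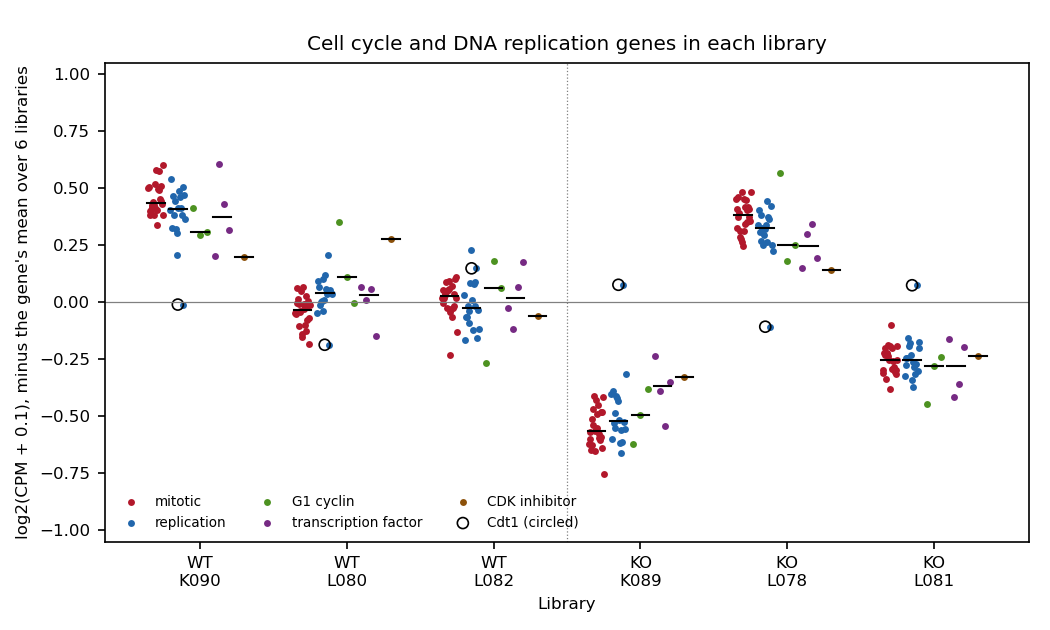
Level of each of the 50 genes in each library, as log2(CPM + 0.1) minus the mean of that gene over the 6 libraries, in columns for the roles, with black bars at the median of each role and circles around *Cdt1*. All roles sit above 0 together in WT K090 and *Slc37a2* KO L078 (medians over all 50 genes 0.42 and 0.34) and low together in *Slc37a2* KO K089 and L081 (−0.53 and −0.25), whereas *Cdt1* stays close to 0. The inhibitor *Cdkn1a* is highest in WT L080 (0.28), above K090 (0.2) and L078 (0.14).

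Mitotic genes were lower in *Slc37a2* KO for 24 of 24, with a median log2 fold change of −0.25 and a range of −0.32 to −0.17. Their summed level was 1888, 1326 and 1381 CPM in K090, L080 and L082 (WT) and 922, 1795 and 1133 CPM in K089, L078 and L081 (*Slc37a2* KO). That is 1532 ± 310 CPM against 1283 ± 456 CPM (SD, n = 3 each), 83.8% of WT. The L078 sum was 117% of the WT mean, and the *Slc37a2* KO mean came to 67.1% without it and to 95.6% without K089. K089 and L081 each lay below every WT library for all 24 genes (33.3% and 31.2% of all genes tested), in contrast to L078, which was inside the WT range for 22 of them (56.8% of all genes tested).

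*Mki67*, whose protein coats mitotic chromosomes and is the standard marker of dividing cells, measured 388, 265 and 277 CPM in WT and 178, 375 and 221 CPM in *Slc37a2* KO libraries. The groups overlapped through L078 alone, and the log2 fold change was −0.26 (95% interval −0.98 to 0.46). *Top2a*, the topoisomerase that untangles sister chromatids, measured 263, 179 and 185 CPM in WT and 125, 246 and 151 CPM in *Slc37a2* KO libraries. It followed the same order of libraries at both ends, with K090 and L078 high and K089 lowest (log2 fold change −0.26, 95% interval −0.94 to 0.41).

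The mitotic kinase and its cyclin varied in parallel. *Cdk1* was at 71.9, 57.6 and 57.2 CPM in WT and 36.4, 69.1 and 47.2 CPM in *Slc37a2* KO libraries. *Ccnb1*, which encodes its partner cyclin B1, was at 42.4, 32.3 and 32.7 CPM in WT and 20.7, 41.5 and 27.8 CPM in *Slc37a2* KO libraries. For both genes L078 lay between K090 and the other WT libraries, and the differences (log2 −0.29, 95% interval −0.86 to 0.28, and −0.25, −0.88 to 0.37) were within the spread.

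*Plk1*, a kinase of mitotic entry and spindle assembly, had 44.5, 27.9 and 32.3 CPM in WT and 19.7, 43.4 and 26.0 CPM in *Slc37a2* KO libraries. *Birc5* encodes survivin, a subunit of the chromosomal passenger complex, and had 41.4, 30.6 and 30.3 CPM in WT and 21.3, 38.8 and 29.1 CPM in *Slc37a2* KO libraries. In L081 *Birc5* came close to the lower WT libraries, while *Plk1* was further below them. The 2 estimates, log2 −0.23 (95% interval −0.99 to 0.53) and −0.20 (−0.77 to 0.37), each came to 0.01 with K089 left out. Among mitotic genes with the lowest unadjusted p were *Mad2l1*, a spindle checkpoint protein (log2 fold change −0.29), and *Tpx2*, which activates Aurora A on the spindle (−0.32), both with an adjusted p of 0.969 (edgeR quasi-likelihood, Benjamini-Hochberg adjusted).

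Replication genes were lower in *Slc37a2* KO for 17 of 18, with a median log2 fold change of −0.24. Their summed level was 1302, 1022 and 1007 CPM in WT and 752, 1238 and 875 CPM in *Slc37a2* KO libraries, or 1110 ± 166 CPM against 955 ± 253 CPM (SD, n = 3 each). The *Slc37a2* KO mean was 86.0% of WT, 73.3% without L078 and 95.1% without K089, and L078 itself was at 111%. The order of libraries was again K090 and L078 above L080 and L082, with L081 and K089 below.

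The MCM2-7 helicase, which is loaded at origins in G1 and unwinds DNA in S phase, was represented by all of its subunits. *Mcm2* was at 61.9, 45.2 and 47.8 CPM in WT and 35.3, 59.1 and 37.3 CPM in *Slc37a2* KO libraries (log2 fold change −0.23, 95% interval −0.78 to 0.31). *Mcm5* was at 93.0, 66.7 and 64.5 CPM in WT and 46.6, 87.8 and 56.9 CPM in *Slc37a2* KO libraries (−0.23, −0.86 to 0.40). *Mcm6* was at 223, 171 and 169 CPM in WT and 122, 206 and 153 CPM in *Slc37a2* KO libraries (−0.22, −0.73 to 0.28). In each of these subunits L078 was second to K090 and well above K089 and L081. Per kilobase of exon, *Mcm6* was the highest subunit, at 39.8 CPM per kilobase against 14.2 for *Mcm2* (means over the 6 libraries).

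*Pcna*, the sliding clamp of the replication fork, was at 126, 108 and 94.6 CPM in WT and 75.6, 120 and 88.9 CPM in *Slc37a2* KO libraries. The lower *Slc37a2* KO libraries came closer to WT here, with a log2 fold change of −0.21 (95% interval −0.66 to 0.25). *Rrm2*, the S-phase subunit of ribonucleotide reductase, was at 72.0, 62.7 and 73.1 CPM in WT and 46.1, 77.9 and 49.1 CPM in *Slc37a2* KO libraries. Its highest library was L078 and its second L082, so K090 did not stand out in WT. *Tyms*, thymidylate synthase, was at 22.0, 17.9 and 16.6 CPM in WT and 11.5, 20.9 and 12.7 CPM in *Slc37a2* KO libraries. Both nucleotide synthesis genes had intervals across 0 (log2 −0.26, 95% interval −0.76 to 0.24, and −0.32, −0.92 to 0.28).

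*Gins2*, a subunit of the GINS complex of the replication fork, had the lowest unadjusted p of the replication genes (log2 fold change −0.35, 95% interval −0.94 to 0.23). Exons of *Gins2* overlap those of *Gse1* on the opposite strand over 2758 bases. *Pola1*, the catalytic subunit of the primase-linked polymerase alpha, had a log2 fold change of −0.30 (95% interval −0.86 to 0.26). Exons of 17 of the 50 genes overlap those of another gene in GENCODE M21, and since the use of strand in counting is not given in the sources used here, reads of the 2 genes cannot be told apart in such stretches.

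*Cdt1* was the exception in the set and was picked out after its values were seen. It encodes the factor that loads the MCM helicase in G1, and its protein is destroyed as S phase begins. Its level was 66.0, 58.4 and 73.7 CPM in WT and 70.1, 61.7 and 70.0 CPM in *Slc37a2* KO libraries. The groups overlapped throughout, and its 1.26-fold range from lowest to highest library was the narrowest of the 50 genes. K089 and L081, low for the other 49 genes, were here above K090, and L078 was below it. The log2 fold change was 0.03 (95% interval −0.22 to 0.27, adjusted p = 0.976, edgeR quasi-likelihood, Benjamini-Hochberg adjusted).

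S-phase and mitotic genes were compared within each library as the ratio of the mitotic to the replication sum. The ratio was 1.45, 1.30 and 1.37 in K090, L080 and L082 (WT) and 1.23, 1.45 and 1.30 in K089, L078 and L081 (*Slc37a2* KO). It was highest in the libraries with the highest summed levels of the set, K090 and L078, and lowest in K089, which had the lowest. The group means, 1.37 ± 0.0761 and 1.32 ± 0.115 (SD, n = 3 each), differed by less than the spread within either group. From lowest to highest library the mitotic sum varied 2.05-fold and the replication sum 1.73-fold.

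G1 cyclins were lower in *Slc37a2* KO for 3 of 3, with a median log2 fold change of −0.26 that reached −0.58 without L078. *Ccnd1* encodes cyclin D1, which links growth factor signals to entry into the cycle, and was at 143, 137 and 89.2 CPM in WT and 69.7, 159 and 78.8 CPM in *Slc37a2* KO libraries. L078 was the highest of all 6 libraries, the log2 fold change was −0.26 (95% interval −1.10 to 0.58), and exons of *Ccnd1* overlap a neighbour on the opposite strand. *Ccne1*, cyclin E1 of the G1 to S transition, was at 14.1, 12.4 and 13.0 CPM in WT and 8.11, 13.0 and 9.44 CPM in *Slc37a2* KO libraries. Its WT libraries were close together, and its unadjusted p was the lowest of the 50 genes (log2 fold change −0.36, 95% interval −0.82 to 0.09, adjusted p = 0.969, edgeR quasi-likelihood, Benjamini-Hochberg adjusted). *Ccne2*, for cyclin E2, was at 26.3, 21.2 and 22.2 CPM in WT and 16.3, 25.3 and 18.0 CPM in *Slc37a2* KO libraries, again with L078 next to K090.

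Of the transcription factors, 4 of 4 were lower in *Slc37a2* KO, with a median log2 fold change of −0.27. *E2f1*, an activator of S-phase genes, was at 34.4, 31.3 and 29.4 CPM in WT and 25.4, 33.2 and 26.7 CPM in *Slc37a2* KO libraries. It varied little, 1.35-fold from lowest to highest library (log2 fold change −0.16, 95% interval −0.45 to 0.14). *E2f8*, an atypical E2F that represses the same class of genes late in S phase, was at 23.0, 15.2 and 13.9 CPM in WT and 11.5, 18.6 and 11.3 CPM in *Slc37a2* KO libraries. Its K090 value stood apart from the other WT libraries, and its log2 fold change was −0.33, with an interval that includes 0.

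*Foxm1*, an activator of G2 and mitotic genes, was at 40.4, 31.1 and 31.3 CPM in WT and 20.5, 38.0 and 23.3 CPM in *Slc37a2* KO libraries (log2 fold change −0.32, 95% interval −0.92 to 0.27). *Mybl2*, which acts with the MuvB complex on the same genes, was at 16.9, 12.2 and 15.3 CPM in WT and 10.6, 15.5 and 11.8 CPM in *Slc37a2* KO libraries (−0.22, −0.68 to 0.23). Both had the library order of the mitotic genes at the extremes. *Cdkn1a* encodes p21, an inhibitor of cyclin-dependent kinases that p53 induces, and was at 128, 135 and 107 CPM in WT and 88.9, 123 and 94.7 CPM in *Slc37a2* KO libraries. An inhibitor and its targets were thus lowest in the same library, K089, although the highest *Cdkn1a* level was in L080 rather than K090 (log2 fold change −0.27, 95% interval −0.63 to 0.09).

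The size of the difference depended on single libraries. Without *Slc37a2* KO library L078 the median log2 fold change over the set was −0.55, 49 of 50 genes had every remaining *Slc37a2* KO library below every WT library (22.1% of all genes tested did), and 45 of 50 were lower at an unadjusted p below 0.05 (11.5% of all genes tested). That count was 0 of 50 with any other library left out, and L078 is the *Slc37a2* KO library that overlaps WT, so its removal itself sets the groups apart. Still 0 of the 50 genes had an adjusted p below 0.05 (lowest 0.227, edgeR quasi-likelihood, Benjamini-Hochberg adjusted), and 0.00736% of all genes did. Without K089 the median was −0.06 with 44 genes lower, without WT library K090 it was −0.08 with 46 lower, and without L081 it was −0.16. Leaving out the other WT libraries moved it the other way, to −0.33 without L080 (50 lower) and −0.30 without L082 (49 lower). Over all genes tested the median lay between −0.03 and 0.01 in these fits. Both animals numbered with a K are at an extreme, K090 in WT and K089 in *Slc37a2* KO, with a median 1.97-fold between them. In the 2 WT and 2 *Slc37a2* KO libraries numbered with an L the direction turned: the median was 0.06, and 11 of 50 genes were lower in *Slc37a2* KO. With the letter as a term in the fit the median was −0.25 with 49 genes lower and 0 called. What the letter stands for is not stated.

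**Figure D2:**
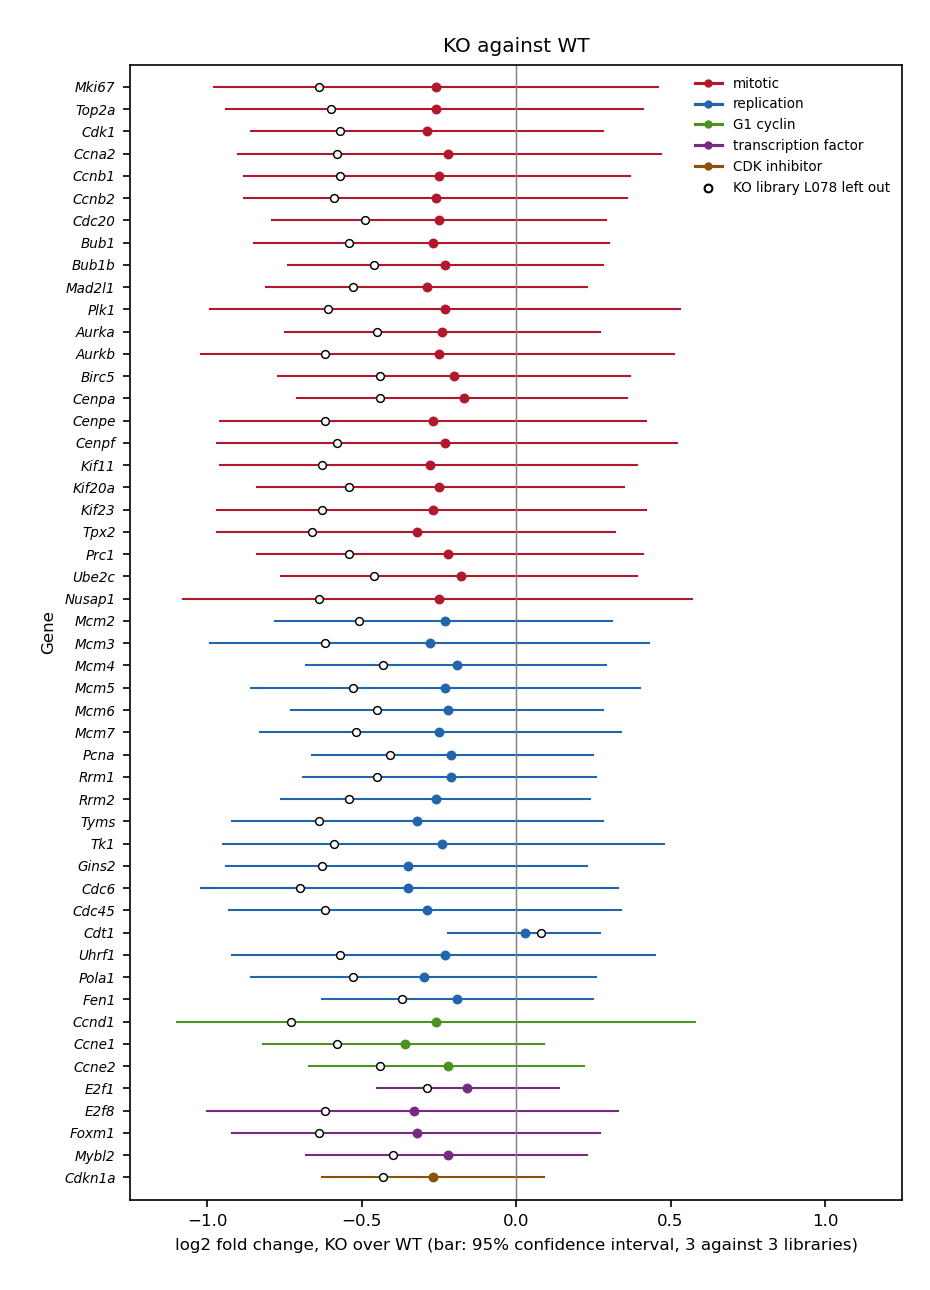
Log2 fold change, *Slc37a2* KO over WT, for each of the 50 genes (filled points, coloured by role) with its 95% confidence interval from 3 against 3 libraries, and the estimate with *Slc37a2* KO library L078 left out (open points). All intervals cross 0, and for every gene but *Cdt1* the open point lies further to the left.

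The osteoclast list (14 of 14 genes found) summed to 47678, 61728 and 68621 CPM before TMM scaling in K090, L080 and L082 (WT) and to 85262, 53011 and 78375 CPM in K089, L078 and L081 (*Slc37a2* KO). The order of libraries in this sum was the exact reverse of that of the 50 genes of the set. On the same scale those 50 genes summed to 3760, 2818 and 2689 CPM in WT and 1791, 3665 and 2176 CPM in *Slc37a2* KO. All 14 osteoclast genes had a higher estimate in *Slc37a2* KO (median log2 fold change 0.28, 0 called), and *Mmp9* was the most abundant, at a mean of 23627 CPM. On this scale K090 and L078 were the 2 lowest libraries for 9 of the 14 genes and the 2 highest for 0. *Nfatc1*, picked out after its values were seen, was highest in K090 before TMM scaling, at 523 CPM against 499 CPM in K089. With the TMM factors of these libraries (1.04 and 0.931), K089 lies above K090 for *Nfatc1*. The part of this list in the differences above was not tested.

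The CPM of all marker lists, here and in the next paragraph, are likewise before TMM scaling. Macrophage markers (10 of 10 genes found) summed to 8807, 8129 and 5318 CPM in WT and 5352, 8310 and 5616 CPM in *Slc37a2* KO libraries. The sum was highest in K090, L078 and L080, and 7 of 10 genes were lower in *Slc37a2* KO (median −0.37, 0 called). K090 and L078 were the 2 highest libraries for 5 of the 10 genes, and the 2 lowest for *Csf1r* and *Cd68*, picked out after their values were seen. *Lyz2*, the most abundant, ran from 950 CPM in K089 to 4459 CPM in K090. Interferon response genes (12 of 12 found) summed to 330, 215 and 120 CPM in WT and 102, 248 and 134 CPM in *Slc37a2* KO libraries. For 12 of 12 the *Slc37a2* KO estimate was lower (median −0.88, 0 called), and K090 and L078 were again the highest libraries. Stromal markers (12 of 12 found, 10 tested, 10 lower, median −0.23, 0 called) summed to 2053, 2905 and 3408 CPM in WT and 1442, 4614 and 1274 CPM in *Slc37a2* KO libraries, led by *Fn1*. L078 was highest and K089 and L081 lowest there as well, but K090 was the lowest of WT. *Lum* and *Lepr*, picked out after their values were seen, had at most 2 and 17 counts in any library. The part of these lists was not tested.

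Markers of other cells were at lower levels, and some were near 0. The monocyte and myeloid progenitor list summed to between 1.75 and 3.99 CPM per library, with *Cd34* the most abundant of the 7 of 10 genes found. *Mpo*, *Prtn3* and *Ctsg*, which mark granulocyte and monocyte progenitors, had at most 1 count in any library, where a count of 0 allows up to 0.0706 to 0.109 CPM (3 counts, for counting error only). *Kit* had 31, 28 and 23 counts in WT and 14, 41 and 21 in *Slc37a2* KO libraries. Neutrophil genes (6 of 8 found, led by *Mmp8*) reached 6.06 CPM, B lymphoid genes (6 of 8, led by *Ebf1*) 7.95 CPM, T and NK genes (2 of 7, led by *Lck*) 0.376 CPM, and erythroid genes (3 of 8, led by *Epor*) 0.306 CPM. Megakaryocyte and platelet genes (4 of 5, led by *Pf4*) reached 9.43 CPM, osteoblast genes (6 of 6, led by *Runx2*) 26.7 CPM and endothelial genes (4 of 4, led by *Kdr*) 6.18 CPM. Few of these genes passed the filter on low counts: 3 of the progenitor list, 2 each of the neutrophil, megakaryocyte and endothelial lists, 1 of the B lymphoid, 4 of the osteoblast and 0 of the T and NK and of the erythroid lists. Of those tested, 0 were called. The cell cycle transcripts were thus counted in libraries where osteoclast and macrophage genes and some stromal genes, led by *Fn1* and collagens, were abundant. Genes of progenitors, T and NK cells and red cells were low there.

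A wider list of 160 cell cycle genes was also mostly lower. Of the 160, 148 were lower and 12 higher in *Slc37a2* KO (median log2 fold change −0.18), 0 were called, and 0 had an unadjusted p below 0.05. The groups did not overlap for 4 genes in the lower and 1 in the higher direction, where 2.81% and 1.5% of all genes tested did so. Other mitotic genes were lower for 64 of 65 (median −0.26), and other replication genes for 45 of 48 (median −0.17). The furthest in each group were *Cdc25c*, the phosphatase that activates CDK1 (−0.52, 95% interval −1.29 to 0.24; −0.95 without L078 and −0.2 in the L libraries alone), and *Dck*, which salvages deoxycytidine (−0.45, −1.46 to 0.56; −0.95 without L078 and 0.09 in the L libraries alone).

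The groups of regulators around the cycle had median differences nearer 0, although single genes among them varied widely between libraries. Other cyclins and kinases were lower for 11 of 12 (median −0.10), genes of the RB, E2F and DREAM group for 16 of 17 (−0.09), other kinase inhibitors for 4 of 6 (−0.07), and p53 with its targets for 8 of 12 (−0.04). *Ccnd2*, for cyclin D2, was at 34.7, 70.0 and 68.1 CPM in WT and 28.6, 87.5 and 22.8 CPM in *Slc37a2* KO libraries, so that K090 was low, unlike for *Ccnd1*. *E2f2*, another activating E2F, was at 12.3, 10.6 and 5.65 CPM in WT and 4.22, 12.3 and 5.51 CPM in *Slc37a2* KO libraries, with L078 and K090 highest and K089 lowest. *Cdkn1c*, which encodes the inhibitor p57, was at 1.98, 3.11 and 5.20 CPM in WT and 6.68, 2.35 and 7.57 CPM in *Slc37a2* KO libraries. It was lowest in K090 and L078 and highest in L081 and K089, with a log2 fold change of 0.69 (95% interval −0.58 to 1.95) that ran from 0.41 without K090 to 1.15 without L082 and was 0.24 in the L libraries alone. *Pmaip1*, for the p53 target NOXA, was likewise lowest in L078 and K090, at 93.1 and 101 CPM, and highest in L081 and K089, at 184 and 170 CPM (log2 fold change 0.33, 95% interval −0.29 to 0.95; 0.17 without L081 and 0.58 without L078).

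Per kilobase of exon, the most abundant gene of the set was *Pcna*, at a mean of 67.3 CPM per kilobase over the 6 libraries, followed by *Cdkn1a* at 41.6 and *Mcm6* at 39.8. Among mitotic genes *Top2a* (36.6) and *Mki67* (28.2) were highest. The lowest of the set were *Cdc6* (2.30), picked out after its value was seen, and *Gins2* (2.69). Lengths are those of all annotated exons joined, so a gene with long exons that are rarely used is placed too low.

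The promoters of the set were then read for the letters of the G1/S and G2/M programmes, since members of both varied together across libraries. Windows of 300 bases, from 250 before to 50 after the annotated start, were taken from RefSeq on GRCm38.p6. They were matched for 41 of the 50 genes, with 46 windows, and the share in all 32851 windows of the table stands beside each value. The E2F-type letters searched on both strands were TTTGGCGC, TTTCCCGC, TTTGCCGC and TTTCGCGC. The letters of the cell cycle homology region (CHR), an element of G2/M promoters, were TTTGAA and TTCGAA, and those of the CCAAT box were CCAAT. E2F-type and CHR matches shared bases in 0 of these promoters, and a CCAAT match shared bases with another in 1.

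E2F-type letters were in 8 of 19 replication windows (42.1%), in 1 of 21 mitotic windows (4.76%), that of *Cdk1*, and in 2.26% of all windows. CHR letters showed the opposite split, in 16 of 21 mitotic windows (76.2%) and 4 of 19 replication windows (21.1%), against 19.2% of all windows. CCAAT was in 18 of 21 mitotic windows (85.7%) and 13 of 19 replication windows (68.4%), against 37.4% of all windows. That order turned in the last 100 bases (47.6% and 52.6%, against 13.6% of all windows there). The CHR matches of mitotic genes sat close to the start. In the last 100 bases alone, a stretch chosen after seeing the data, they were in 15 of 21 mitotic windows (71.4%), 1 of 19 replication windows (5.26%) and 5.31% of all windows, whereas in the first 200 bases the roles were close, with 23.8% of mitotic and 21.1% of replication windows, against 14.7% of all. A match describes letters in a window and is neither a bound site nor a cause, and some genes have more than 1 window.

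**Figure D3:**
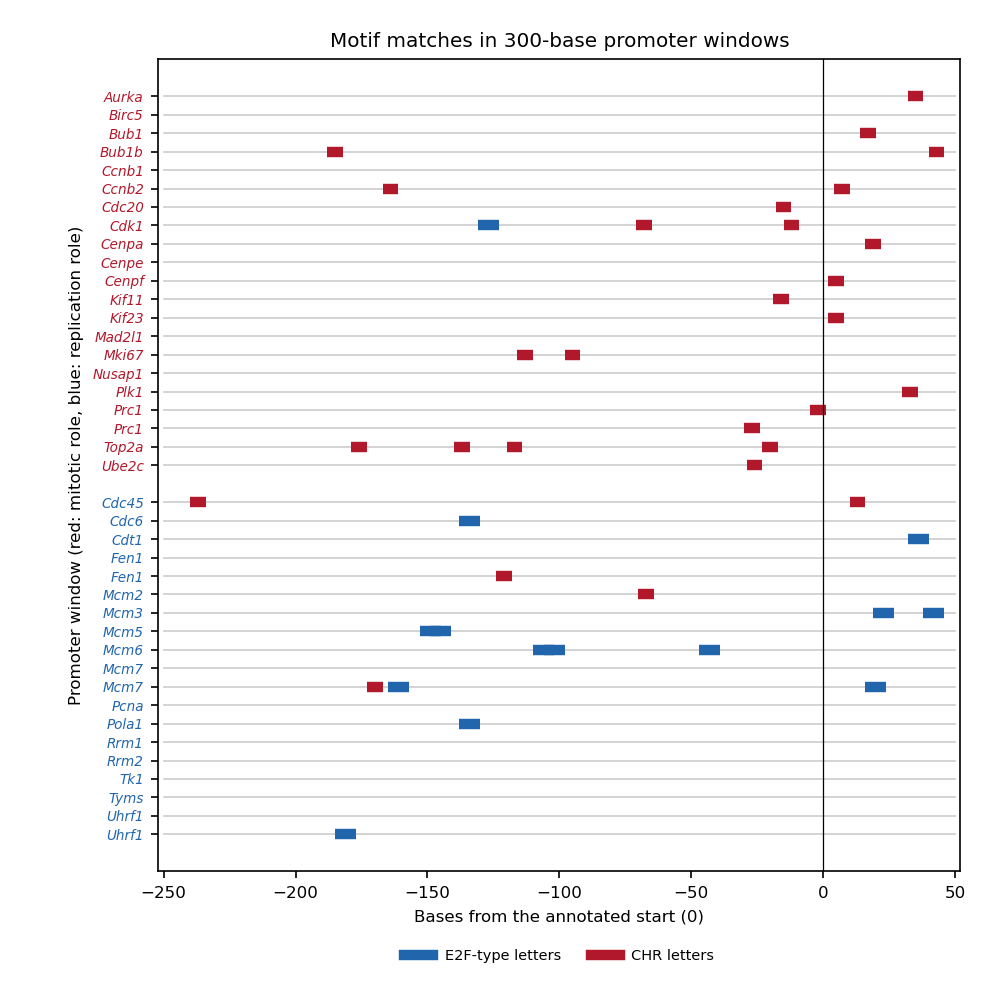
Positions of E2F-type (blue bars) and CHR letters (red bars) in the promoter windows of mitotic genes (red names) and replication genes (blue names), in bases from the annotated start at 0. Red bars gather near the start of mitotic genes, in 15 of 21 windows within the last 100 bases, and blue bars fall in 8 of 19 windows of replication genes.

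The sequences of 3 mitotic and 3 replication promoters are shown because they hold these letters in different arrangements. Capitals mark E2F-type and CHR matches on either strand, and each sequence reads 5′ to 3′ on the strand of its gene. *Top2a* (chr11:99024140-99024439, minus strand) holds 4 CHR matches, at positions −179, −140, −120 and −23 from the start. *Cdk1* (chr10:69352863-69353162, minus strand) holds an E2F-type match at −131 and CHR matches at −71 and −15. *Plk1* (chr7:122159185-122159484, plus strand) holds a single CHR match after the start, at 30. *Mcm5* (chr8:75109259-75109558, plus strand) and *Mcm6* (chr1:128359656-128359955, minus strand) each hold a pair of E2F-type matches on opposite strands that share bases, at −153 and −149 and at −110 and −106, and *Mcm6* holds another at −47. *Pola1* (chrX:93632106-93632405, minus strand) holds 1 E2F-type match, at −138.
Top2a: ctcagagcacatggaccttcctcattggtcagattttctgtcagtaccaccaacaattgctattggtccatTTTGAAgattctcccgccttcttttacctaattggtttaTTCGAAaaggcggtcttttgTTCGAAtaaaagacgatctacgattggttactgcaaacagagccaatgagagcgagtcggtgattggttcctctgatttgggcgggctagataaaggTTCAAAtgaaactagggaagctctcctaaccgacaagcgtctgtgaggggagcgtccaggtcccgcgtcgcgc
Cdk1: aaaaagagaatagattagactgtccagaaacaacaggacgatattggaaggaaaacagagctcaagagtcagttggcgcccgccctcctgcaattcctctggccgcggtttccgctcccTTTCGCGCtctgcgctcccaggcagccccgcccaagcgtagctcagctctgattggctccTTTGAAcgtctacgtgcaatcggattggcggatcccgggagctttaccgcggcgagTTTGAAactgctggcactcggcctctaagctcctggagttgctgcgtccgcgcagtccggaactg
Plk1: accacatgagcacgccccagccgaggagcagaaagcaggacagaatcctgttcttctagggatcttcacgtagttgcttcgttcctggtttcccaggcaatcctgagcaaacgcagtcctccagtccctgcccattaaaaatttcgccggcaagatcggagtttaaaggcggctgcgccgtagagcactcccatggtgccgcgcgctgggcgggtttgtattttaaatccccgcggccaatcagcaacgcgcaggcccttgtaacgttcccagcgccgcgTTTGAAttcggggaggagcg
Mcm5: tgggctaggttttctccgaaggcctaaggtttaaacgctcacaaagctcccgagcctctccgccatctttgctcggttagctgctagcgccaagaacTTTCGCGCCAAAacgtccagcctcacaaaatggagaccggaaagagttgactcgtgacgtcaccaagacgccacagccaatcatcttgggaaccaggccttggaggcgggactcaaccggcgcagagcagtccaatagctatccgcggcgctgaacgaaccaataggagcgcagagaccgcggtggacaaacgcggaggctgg
Mcm6: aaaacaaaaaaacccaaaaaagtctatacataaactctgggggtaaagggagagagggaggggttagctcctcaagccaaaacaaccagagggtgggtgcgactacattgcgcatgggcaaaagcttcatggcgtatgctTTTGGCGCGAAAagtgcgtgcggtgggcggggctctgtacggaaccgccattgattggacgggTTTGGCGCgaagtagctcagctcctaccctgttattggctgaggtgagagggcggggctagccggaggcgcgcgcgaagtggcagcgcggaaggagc
Pola1: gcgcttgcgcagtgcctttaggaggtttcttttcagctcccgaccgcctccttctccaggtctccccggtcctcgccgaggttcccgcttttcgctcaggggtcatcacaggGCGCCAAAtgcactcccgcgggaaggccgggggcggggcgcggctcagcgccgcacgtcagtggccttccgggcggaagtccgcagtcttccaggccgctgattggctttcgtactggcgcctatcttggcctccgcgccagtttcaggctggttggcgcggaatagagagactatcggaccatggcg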

How the data were processed

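RNAseq was measured in 3 WT and 3 *Slc37a2* KO libraries. The authors deposited whole-number read counts per gene, not normalized. Columns of their own comparison (logFC, logCPM, LR, PValue and FDR) and a list of its first genes were not used. The submitters' processing notes name mm10, bcl2fastq 2.20.0.422 and edgeR 3.30.3. For the aligner, counting tool and annotation, the names were not given in the sources used here. Columns were assigned by the genotype in their headings, with 0 columns from other samples. No library duplicated another (lowest chi-square per degree of freedom 6.72, K089 and L081).

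Counts were fitted in R 4.3.3 with edgeR 4.0.16: filterByExpr (minimum count 10), TMM scaling, a quasi-likelihood fit and test on genotype, and p-values Benjamini-Hochberg adjusted over all genes tested, with a threshold of 0.05. Alternatives were DESeq2 1.42.0, other tests, scalings and filters, the letter of the animal number, and fewer libraries. The fits were tested on simulated data. Summaries and figures used Python 3.11.15, pandas 2.3.3 and matplotlib 3.10.9. Exon lengths came from GENCODE M21.

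The members and lists were chosen with earlier results of these data known. Named genes were *Slc37a2*, defining genes of each role, the 3 with the lowest p and the 2 highest per kilobase in each role with over 5 members, the largest log2 fold change in each group of the wider list, and the most abundant marker of each list. *Cdt1*, *Cdc6*, *Kit*, *Mpo*, *Prtn3*, *Ctsg*, *Csf1r*, *Cd68*, *Nfatc1*, *Lum* and *Lepr* were added once their values had been seen. Some marker genes are not reported here.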

Additional observations from a re-analysis of the deposited data

How the results depend on the processing

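No alternative called any of the 50 genes or of the wider list in edgeR or DESeq2, and the lowest adjusted p of the set ran from 0.227 to 1 over the alternatives. Other tests, scalings and filters and the letter of the animal number as a term left 49 of 50 genes lower, with medians from −0.26 to −0.24. Of the comparisons of single genes other than *Slc37a2* with an alternative, 412 kept their direction and 22 turned it. Of the other comparisons (*Slc37a2*, counts of genes called, medians, sums and promoter shares), 145 were judged the same, each by the rule for its kind of value, and 7 moved. Medians were judged beside a spread (0.36 for the set, 0.39 for mitotic genes) and not by their sign. The 145 thus include medians that changed sign with the libraries numbered with an L alone. These were 0.06 for the set and 0.12 for mitotic genes, each against −0.25. With the libraries numbered with an L alone (2 against 2), the log2 fold change was 0.14 for *Mki67*, 0.13 for *Top2a*, 0.02 for *Cdk1*, 0.09 for *Ccnb1*, 0.21 for *Plk1*, 0.16 for *Birc5*, 0.05 for *Mcm2*, 0.14 for *Mcm5*, 0.04 for *Pcna*, 0.08 for *Ccnd1*, 0.04 for *E2f8*, 0.00482 for *Mad2l1*, 0.02 for *Tpx2*, 0.05 for *Pola1*, 0.08 for *Mcm6*, 0.09 for *Dck*, 0.14 for *E2f2* and −0.01 for *Cdt1*; the cause was not tested. Over single libraries left out, the estimate ran from −0.61 to 0.01 for *Plk1*, from −0.44 to 0.01 for *Birc5*, from −1.16 to 0.03 for *Ccnd2* and from −0.05 to 0.14 for *Cdt1*, and the median of the G1 cyclins from −0.58 to −0.08. In the first 200 bases of the promoter windows CHR letters were found in 23.8% of mitotic windows and, as in the full window, 21.1% of replication windows, against 14.7% of all windows. CCAAT was found there in 52.4% and 42.1%, against 28.4% of all windows, and E2F-type letters in 4.76% and 31.6%, against 1.46%. In the last 100 bases, a choice made after seeing the data, they were found in 0% of mitotic windows for E2F-type letters, 5.26% of replication windows for CHR and 47.6% of mitotic windows for CCAAT. The CCAAT letters were there in 52.6% of replication windows, so that the order of the roles turned, and E2F-type letters in 21.1% of replication windows. Over all windows the last 100 bases held E2F-type letters in 0.822%, CHR in 5.31% and CCAAT in 13.6%.

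No paired analysis was possible because the columns carry an animal number and no replicate number. With 3 libraries per genotype and a spread of 20.8% (biological coefficient of variation), the median 95% interval over the 50 genes ran from −0.86 to 0.33, which leaves room for decreases and for smaller increases.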
